A study of Mus musculus with 12 samples.

Results

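Endothelial and mural cell genes are the genes by which the wall of the brain's blood vessels is usually recognised in RNA. They were followed here in RNA from whole hippocampus of mouse pups. The 33 members are named endothelial, pericyte and smooth muscle genes, set by name rather than by a threshold on their values but with earlier results of these data known, and all 33 were found among the 29454 genes of the deposited table. Of these, 23 are endothelial genes and 10 are mural genes. Each value is an FPKM, the fragments counted per kilobase of transcript and scaled to the library's total.

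Endothelial cells line the vessel. In the brain they are joined by tight junctions and carry their own set of transporters, which together make up the blood-brain barrier, and VEGF, angiopoietin and Wnt signals guide how they grow and seal. Mural cells sit on the outside: pericytes share the basement membrane of the capillaries, and contractile smooth muscle cells wrap the arterioles. Vessels invade the developing forebrain from the meninges that cover it, and they are still growing and maturing after birth.

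The 12 libraries fall into 3 groups of littermate pups. WT (3 libraries) carried no transgene. CAMK (3 libraries) carried CaMKIIα-tTA, a driver line for the tetracycline transactivator. CX3CL1-ct (6 libraries) carried the same driver together with Tg-CX3CL1-ct, a transgene named for the C-terminus of CX3CL1. CX3CL1 is a chemokine anchored in the cell membrane. The CaMKIIα promoter is known as one of forebrain neurons, and no label places the driver or the transgene in cells of the vessel wall. The strain label is C57/BL6, and the Tg-CX3CL1-ct line had been crossed to C57BL/6J for 6 generations before it met the driver line. The age is postnatal day 4 in the sample labels and postnatal day 0 in the series' design text. Sex, litter and batch are not given. Nothing in the labels makes each library a separate animal, so the p-values here speak only of the spread among these samples, which may be technical.

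The libraries were of similar size, with 12200000 to 16200000 fragments each as estimated from the smallest steps of FPKM in short genes. FPKM summed to 552481 to 659362 per library, and 15318 to 15861 genes reached 1 FPKM. The 6 neuron markers (Snap25, Syt1, Tubb3, Rbfox3, Neurod6 and Prox1) were detected in every library and summed to 875 to 1527 FPKM, so that neurons of the labelled tissue were seen in each. CX3CL1-ct 1, 2 and 3 were more alike than other libraries of 1 group: over 3889 genes with a mean of at least 20 FPKM, the median absolute log2 difference was 0.0512 to 0.0723 between them and 0.0873 to 0.190 between all other pairs within a group. The labels give them as separate samples and they were kept as such, with their average used as 1 sample in an alternative. CX3CL1-ct 4 stood apart in the other direction, with the highest value of all 12 libraries for 18 of the 33 members. CX3CL1-ct 5 was the lowest of its group for 20 members, and WT 2 was the lowest of all 12 libraries for 15.

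Every member was detected in every library, over a range of mean level from 0.613 FPKM (Des) to 42.4 FPKM (Cldn5). The highest of the others were Rgs5 (41.3), Vtn (24.6), Egfl7 (19.0), Mfsd2a (14.9) and Slc2a1 (12.5), and the lowest were Myh11 (0.795) and Anpep (0.830). Spread between libraries differed widely. The highest library was 1.22 times the lowest for Flt1, 1.26 times for Slc2a1 and 1.29 times for both Rgs5 and Mfsd2a. For the contractile genes that ratio was 8.41 (Acta2), 5.67 (Myh11) and 5.08 (Tagln), and for the pericyte genes Vtn and Anpep it was 3.44 and 3.41. In bulk tissue, fewer cells of a type and less RNA per cell cannot be told apart.

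**Figure D1:**
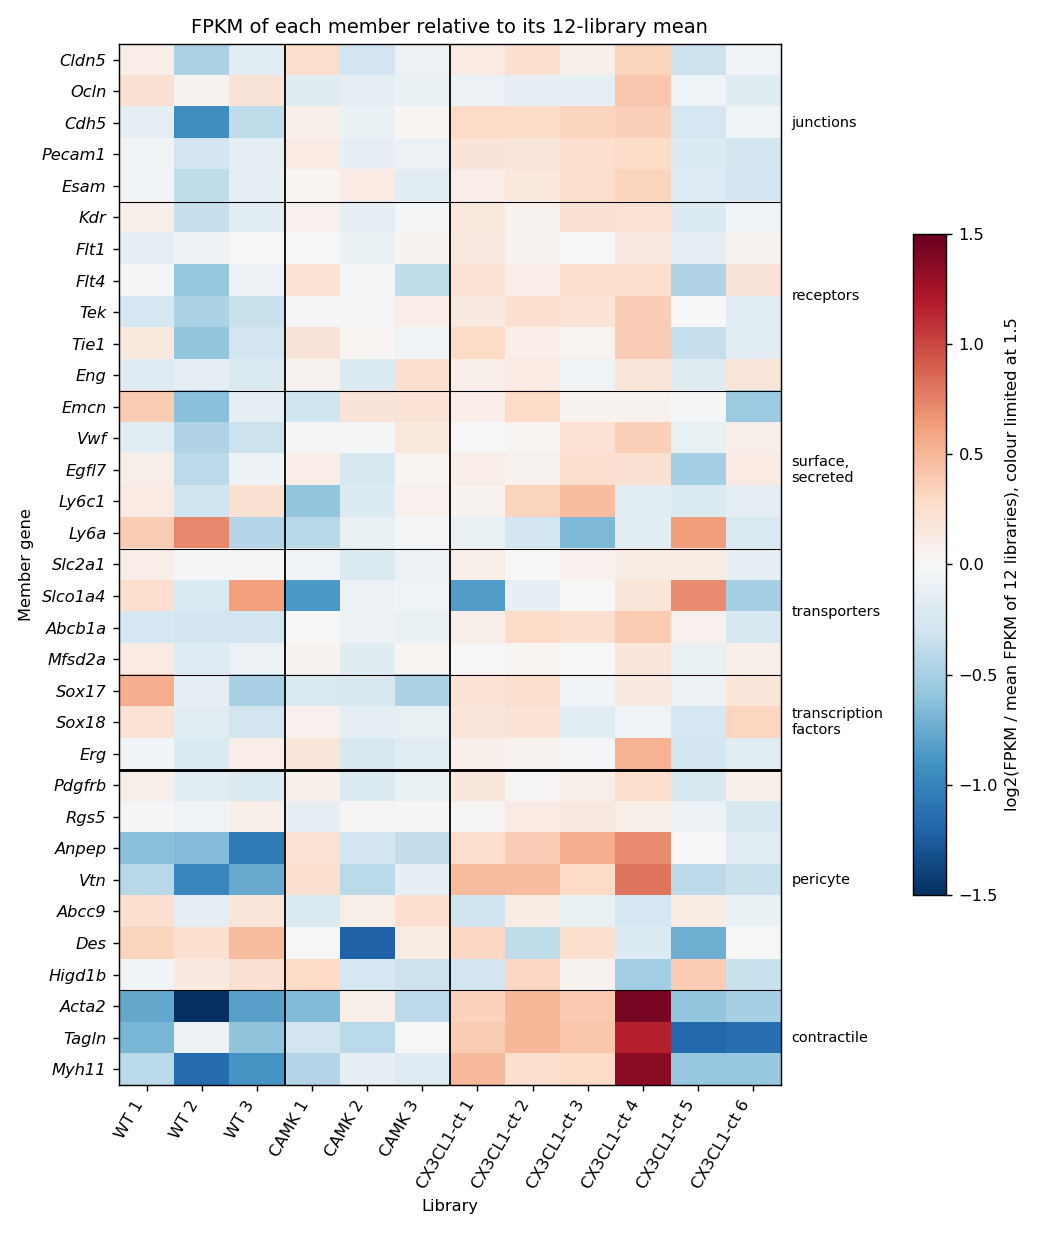
Heat map of the log2 ratio of each library's FPKM to the gene's mean over the 12 libraries, for the 33 members (rows, by role) and the 12 libraries (columns, by group). CX3CL1-ct 4 is the highest library for 18 members and WT 2 the lowest for 15. The widest ratios are in the contractile genes Acta2, Tagln and Myh11.

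For the tests, log2(FPKM + 1) was fitted with limma in 1 model over all 12 libraries. The 16503 genes with at least 1 FPKM in at least 3 libraries were tested, Benjamini-Hochberg adjustment covered all of them, and a gene was called at an adjusted p under 0.05. Differences are on that log2 scale, on which changes of low genes come out too small. Of the 33 members 31 were tested. Des and Myh11 were too low, and Anpep entered only through CX3CL1-ct 2, 3 and 4, so that it had to differ in that direction.

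No member was called in any of the 3 comparisons in the fit without a block. CAMK and WT libraries of the same number deviate together, while CX3CL1-ct libraries did not do so at every number with either group. With the number as a block over all 12 libraries, 1 of 31 members, Vtn, was called between CAMK and WT (limma adjusted p = 0.0483). In all, 490 of the 16503 genes tested were called there in place of 59, a share close to that of the members. CX3CL1-ct libraries shared those blocks, so these calls do not rest on CAMK and WT alone. For CX3CL1-ct against CAMK, which asks what the transgene adds in pups that all carry the driver, 0 of 31 were called, beside 0.0606% of all genes tested, and the smallest adjusted p of a member was 0.774. At an unadjusted p under 0.05 there was 1 higher member (5.33% of all genes were higher in this way) and 0 lower ones (1.04% of all genes). For CX3CL1-ct against WT 0 of 31 were called (0.454% of all genes), with a smallest adjusted p of 0.109. At an unadjusted p under 0.05 there were 7 higher members (8.8% of all genes), Anpep with its fixed direction among them, and 0 lower (3.49% of all genes). For CAMK against WT 0 of 31 were called (0.358% of all genes), with a smallest adjusted p of 0.305. At an unadjusted p under 0.05 there were 3 higher members (6.6% of all genes) and 0 lower (5.79% of all genes). No second tool was run on these members.

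The groups of some members did not overlap. In CX3CL1-ct against WT, Tek, Vwf, Abcb1a, Anpep, Vtn and Acta2 were higher in every CX3CL1-ct library than in every WT library, and no member was lower in every one. Of all genes tested, 4.67% were higher in this way and 1.38% lower. Anpep entered the tests only through CX3CL1-ct libraries, as given above. In CAMK against WT the same 6 genes and Cdh5 were higher without overlap (9.22% of all genes), and Ocln and Slc2a1 were lower without overlap (8.8% of all genes). Des, which was not tested, was lower in every CAMK library too. In CX3CL1-ct against CAMK only Sox17 was higher without overlap (2.78% of all genes), and none was lower (0.527% of all genes). The first 2 sets use the same WT libraries.

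The order of the group means was most often WT below CAMK below CX3CL1-ct. It held for 20 of the 31 tested members (64.5%, Anpep with its fixed direction among them), beside 23.4% of all genes tested. WT was the lowest group for 21 (67.7%), beside 44.4% of all genes. CAMK was the lowest and CX3CL1-ct the highest group for 5 members, a share (16.1%) close to that of all genes (18.6%). Members share high and low libraries: of all 33, WT 2 was the lowest of 12 for 15 and CX3CL1-ct 4 the highest for 18. Their orders are therefore not separate observations.

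**Figure D2:**
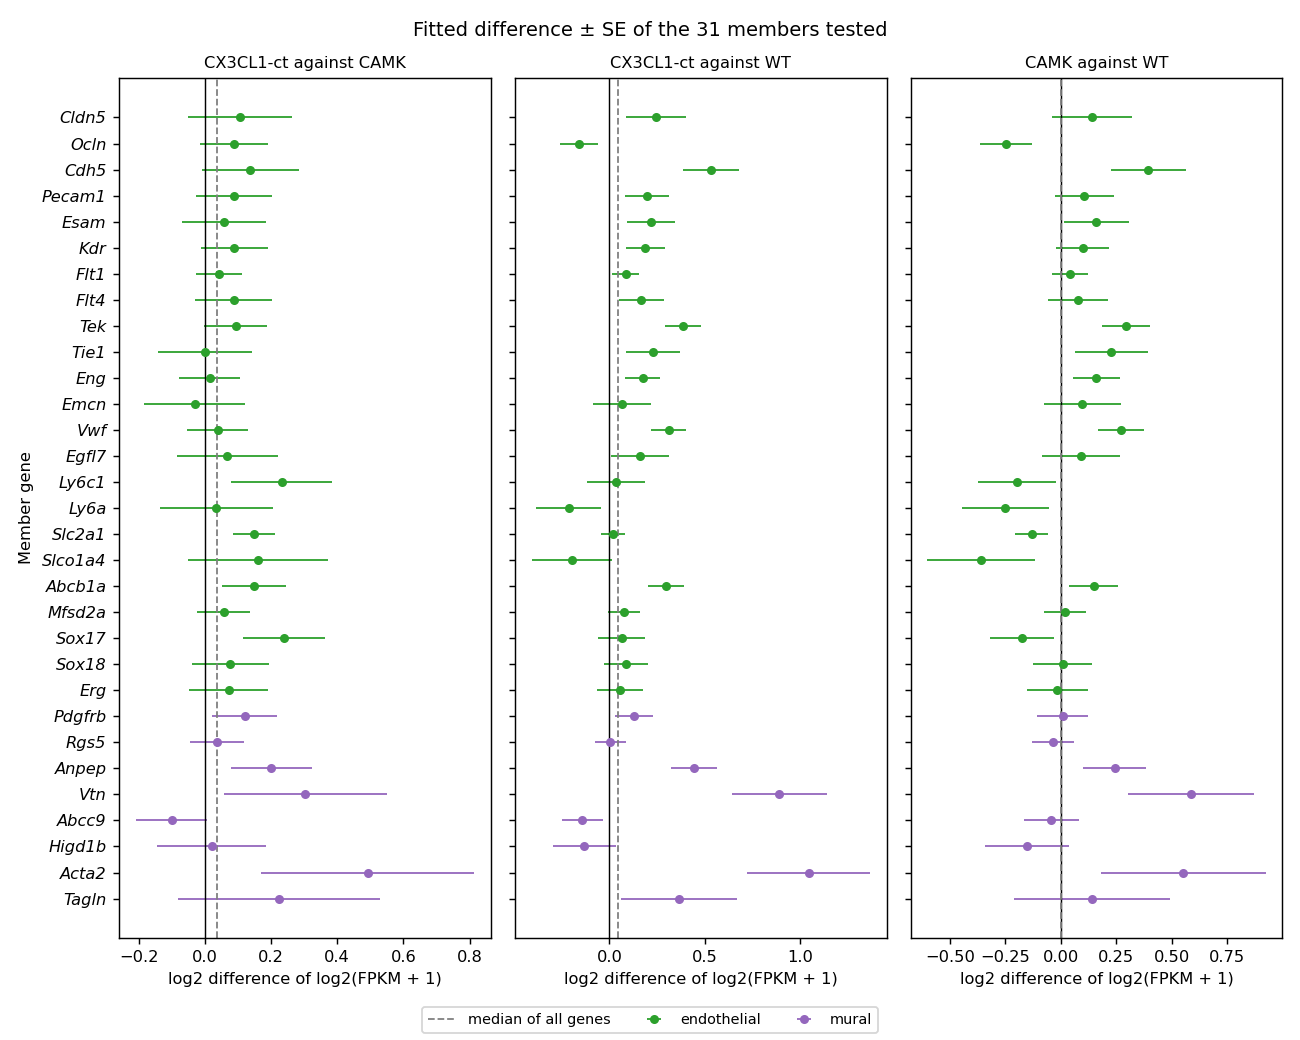
Fitted difference in log2(FPKM + 1), with its SE as a bar, for the 31 tested members (rows) in the 3 comparisons (panels); the dashed line is the median of all genes tested, 0.04, 0.04 and 0.00. No member was called. In CX3CL1-ct against WT the differences run from -0.21 (Ly6a) to 1.04 (Acta2).

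Among the junction genes Cdh5 had the widest differences between groups. Cdh5 (VE-cadherin, chr8:104101625-104144511 on mm10, as for all coordinates of genes here) is the cadherin that holds endothelial cells to each other. It stood at 5.0, 2.88 and 4.25 FPKM in WT 1, 2 and 3 and at 5.82, 5.15 and 5.62 in CAMK 1, 2 and 3. In CX3CL1-ct the lowest, median and highest of 6 libraries were 4.65, 6.75 and 7.09. All CAMK libraries were above all WT libraries, while the lowest CX3CL1-ct library lay within the WT range. Its log2 difference was 0.53 (SE 0.15) for CX3CL1-ct against WT (limma adjusted p = 0.157), 0.39 (SE 0.17) for CAMK against WT (adjusted p = 0.373) and 0.14 (SE 0.15) for CX3CL1-ct against CAMK (adjusted p = 0.926). The value for CAMK against WT was 0.22 without WT 2, and that for CX3CL1-ct against CAMK 0.21 without CX3CL1-ct 5.

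The other junction genes stayed closer together. Cldn5, the main sealing claudin of brain endothelium (chr16:18776847-18778262), stood at 37.8 ± 7.37 FPKM (SD, n = 3) in WT, 41.8 ± 8.37 (n = 3) in CAMK and 44.9 ± 6.75 (n = 6) in CX3CL1-ct. Pecam1 stood at 5.10 ± 0.417, 5.57 ± 0.523 and 6.03 ± 0.962 in the same order, and Esam at 7.42 ± 0.884, 8.39 ± 0.850 and 8.85 ± 1.48. Pecam1 and Esam are adhesion molecules of the immunoglobulin family. For these 3 genes the means follow the order WT, CAMK, CX3CL1-ct, and the groups overlap in every comparison.

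Ocln, the gene of the tight junction protein occludin, had another order. It stood at 6.01, 5.34 and 5.90 FPKM in WT and at 4.55, 4.69 and 4.79 in CAMK. The CX3CL1-ct libraries ran from 4.54 over a median of 4.78 to 6.82, and the highest value was that of CX3CL1-ct 4, the other 5 lying at or below 4.90. WT was thus above CAMK in every library and overlapped CX3CL1-ct only through CX3CL1-ct 4. The log2 difference was -0.25 (SE 0.12) for CAMK against WT (limma adjusted p = 0.425) and -0.16 for CX3CL1-ct against WT (adjusted p = 0.548). Epithelia such as the choroid plexus also make occludin, and the 8 choroid plexus markers summed to 306 to 2329 FPKM in WT, 101 to 901 in CAMK and 152 to 625 in CX3CL1-ct. Their part in the Ocln values was not tested.

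Of the 6 receptor genes, the angiopoietin receptor gene had the smallest p of any member in both comparisons with WT. Tek (Tie2, chr4:94739289-94874976) binds angiopoietins made by mural and other cells and is known for keeping vessels stable. Tie1 (chr4:118471191-118490061) is its partner receptor. Both promoter windows are shown because Tek has that smallest p and Tie1 is its partner. They run from 250 bases before to 50 bases after a RefSeq start of the gene, on the gene's strand, from RefSeq on GRCm38.p6, at chr4:94739039-94739338 (+ strand) for Tek and chr4:118489800-118490099 (- strand) for Tie1. The Tek start is that of the interval above, while the Tie1 start lies 212 bases inside it. Capitals mark GGAA or its reverse complement TTCC, the core to which ETS factors such as ERG bind.
Tek: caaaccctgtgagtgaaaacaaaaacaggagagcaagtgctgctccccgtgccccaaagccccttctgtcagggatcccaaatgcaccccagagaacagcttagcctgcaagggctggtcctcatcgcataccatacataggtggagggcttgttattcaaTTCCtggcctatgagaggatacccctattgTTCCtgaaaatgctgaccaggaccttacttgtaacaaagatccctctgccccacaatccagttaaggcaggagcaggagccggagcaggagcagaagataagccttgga
Tie1: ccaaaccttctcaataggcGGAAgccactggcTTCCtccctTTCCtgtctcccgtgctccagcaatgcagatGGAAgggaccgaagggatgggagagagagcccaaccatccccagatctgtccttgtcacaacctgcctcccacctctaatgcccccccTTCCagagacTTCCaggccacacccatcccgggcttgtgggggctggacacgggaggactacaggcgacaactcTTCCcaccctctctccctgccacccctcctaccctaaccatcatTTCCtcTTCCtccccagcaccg
The Tek window holds 2 matches and the Tie1 window 9. Among all 32851 RefSeq windows of this length 96% hold at least 1 match, with a median of 3, and 1.59% hold 9 or more. For 22 of the 33 members a window was found, 28 windows in all, and 26 of these hold a match, with a median of 3.5. The motif is thus about as common in all promoters as in those of the members, and a match is a description of letters, not a site in use.

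Tek stood at 3.38, 2.90 and 3.20 FPKM in WT and at 4.0, 3.96 and 4.31 in CAMK. The CX3CL1-ct libraries ran from 3.58 over a median of 4.56 to 5.24. Every library with the driver was above every WT library, and CAMK lay within the CX3CL1-ct range. The ratio of means was 1.41 for CX3CL1-ct against WT, with a log2 difference of 0.39 (SE 0.09, limma adjusted p = 0.109, 0.0354 to 0.415 over the alternatives). For CAMK against WT it was 0.29 (SE 0.11, adjusted p = 0.305) and for CX3CL1-ct against CAMK 0.09 (SE 0.09, adjusted p = 0.921). Without CX3CL1-ct 6 the difference from WT was 0.43, with a limma adjusted p of 0.0444. In the fit without a block this library thus decided the side of the threshold. The value of 0.0354 is that with the replicate number as a block, where CX3CL1-ct enters only through libraries 1, 2 and 3.

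Tie1, with its 9 marked matches above, stood at 4.34, 2.62 and 3.22 FPKM in WT and at 4.49, 4.01 and 3.77 in CAMK. In CX3CL1-ct it ran from 3.09 over 4.13 to 5.07. The groups overlap in every comparison, and the log2 difference was 0.23 for CX3CL1-ct against WT (limma adjusted p = 0.544) and -0.00 for CX3CL1-ct against CAMK (adjusted p = 1). Whether Tek and Tie1 differ from each other in their response was not tested.

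The VEGF receptor genes overlapped between groups in every comparison. Kdr, the main VEGF receptor of endothelium, stood at 8.05 ± 1.17 FPKM (n = 3) in WT, 8.65 ± 0.633 (n = 3) in CAMK and 9.30 ± 1.05 (n = 6) in CX3CL1-ct. Flt1, a VEGF receptor that also acts as a trap for the ligand, had the narrowest spread of all members, at 4.52 ± 0.233, 4.69 ± 0.257 and 4.86 ± 0.350. Flt4, the receptor of VEGF-C, was near 1 FPKM, at 0.965 ± 0.187, 1.08 ± 0.215 and 1.21 ± 0.199. Eng, a co-receptor of the TGF-β family, stood at 2.83 ± 0.101, 3.30 ± 0.517 and 3.33 ± 0.323. Its exons overlap those of Fpgs, which lies on the other strand. The sources do not state how strand entered the counting, which also bears on other overlaps named here. For these 4 genes the adjusted p was 0.471 or higher in every comparison.

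Vwf led the genes of surface and secreted proteins. Vwf (chr6:125546774-125686679) encodes von Willebrand factor, which endothelial cells store and release in clotting and which is known to be strongest in larger vessels. It stood at 3.11, 2.52 and 2.78 FPKM in WT, at 3.51, 3.38 and 3.86 in CAMK, and from 3.20 over 3.62 to 4.44 in CX3CL1-ct. As for Tek, every library with the driver was above every WT library. The ratio of means was 1.33 for CX3CL1-ct against WT, with a log2 difference of 0.31 (SE 0.09, limma adjusted p = 0.183). For CAMK against WT it was 0.27 (SE 0.11, adjusted p = 0.324) and for CX3CL1-ct against CAMK 0.04 (SE 0.09, adjusted p = 0.972).

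The rest of that set overlapped between groups. Egfl7, a secreted factor of vessel tubes, stood at 17.6 ± 2.89, 18.7 ± 2.27 and 19.8 ± 3.38 FPKM in WT, CAMK and CX3CL1-ct, and its exons overlap those of Agpat2 and other transcripts. Emcn (endomucin, a marker of capillaries and veins) stood at 1.85 ± 0.643, 2.02 ± 0.378 and 1.96 ± 0.348. Ly6c1 stood at 3.92 ± 0.707, 3.29 ± 0.722 and 4.05 ± 0.828, and Ly6a at 1.63 ± 0.606, 1.18 ± 0.160 and 1.25 ± 0.412. The last pair belong to a family of near-identical genes, so how fragments were split between them is uncertain. In this set the adjusted p other than that of Vwf was 0.636 or higher in every comparison.

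The 4 transporter genes differed among themselves. Slc2a1 (chr4:119108711-119137983) encodes GLUT1, which carries glucose across the barrier and is also made by astrocytes. It stood at 13.4, 12.3 and 12.3 FPKM in WT, at 12.1, 10.7 and 11.7 in CAMK, and from 11.5 over 13.1 to 13.5 in CX3CL1-ct. CAMK was below WT in every library, and CX3CL1-ct overlapped both. The 6 astrocyte markers, none called, summed to 354 to 434 FPKM in WT, 321 to 337 in CAMK and 321 to 440 in CX3CL1-ct. Between CAMK and WT 5 of the 6 had a negative difference (median -0.19), where 50.5% of all genes were positive. Slc1a2 and Slc1a3 were lower without overlap (8.8% of all genes). Between CX3CL1-ct and CAMK the median of the astrocyte markers was 0.09. Their part in the Slc2a1 values was not tested. Slc2a1 was the 1 member with an unadjusted limma p under 0.05 between CX3CL1-ct and CAMK, at 0.0386 (5.33% of all genes were higher in this way). That log2 difference was 0.15 (SE 0.06, limma adjusted p = 0.774), beside -0.13 (SE 0.07, adjusted p = 0.522, or -0.08 without CAMK 2) for CAMK against WT and 0.02 (adjusted p = 0.932) for CX3CL1-ct against WT. The sign of the last depends on the scaling between libraries: it was -0.03 under both median-of-ratios scaling and quantile normalization.

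Abcb1a (chr5:8660077-8748575) encodes P-glycoprotein, which pumps drugs and other compounds back into the blood. It stood at 2.15, 2.12 and 2.13 FPKM in WT, at 2.58, 2.44 and 2.40 in CAMK, and from 2.20 over 2.91 to 3.38 in CX3CL1-ct. All WT libraries were below all others, though WT 1 and the lowest CX3CL1-ct library were close. The log2 difference was 0.30 (SE 0.10) for CX3CL1-ct against WT (limma adjusted p = 0.236), 0.15 (SE 0.11) for CAMK against WT (adjusted p = 0.650) and 0.15 (SE 0.10) for CX3CL1-ct against CAMK (adjusted p = 0.831). Its close paralog Abcb1b could share fragments with it. The organic anion transporter gene Slco1a4 stood at 2.42 ± 0.686, 1.66 ± 0.470 and 2.02 ± 0.762 in WT, CAMK and CX3CL1-ct. Mfsd2a, which carries lipids with docosahexaenoic acid and keeps transcytosis low, stood at 14.4 ± 1.63, 14.6 ± 1.30 and 15.2 ± 1.04.

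**Figure D3:**
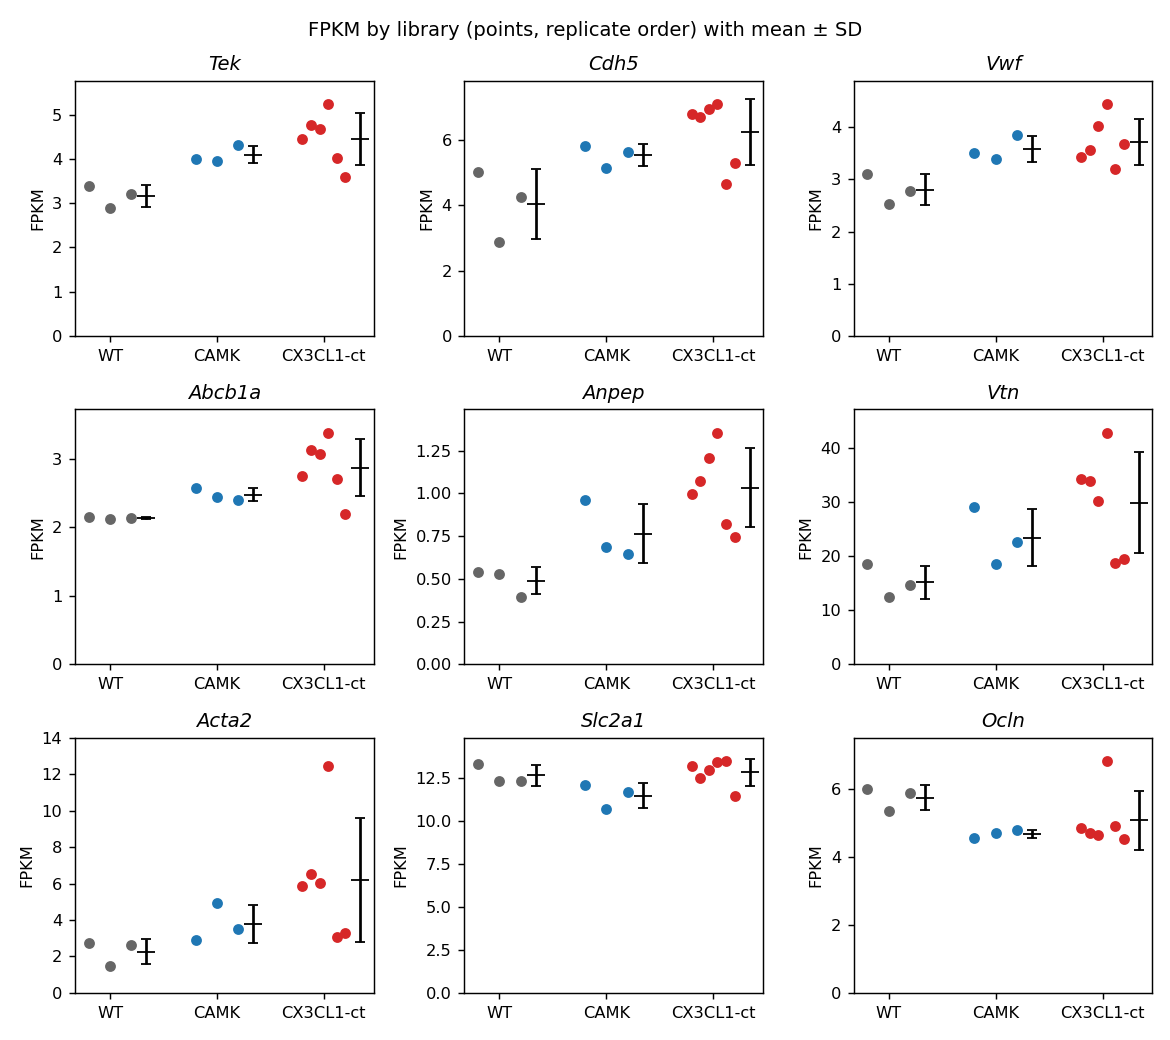
FPKM (y axis, from 0) of 9 members by group (x axis), 1 point per library, where bars give mean ± SD. WT lies below every other library for Tek, Vwf, Abcb1a, Anpep, Vtn and Acta2, while CAMK is the lowest group for Slc2a1 and Ocln. The highest Acta2 value, 12.4, is CX3CL1-ct 4.

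Sox17, a transcription factor gene, was the 1 of 31 tested members without overlap between CX3CL1-ct and CAMK. That is close to the share of all genes higher in this way (2.78%). Sox17 (chr1:4490931-4497354) is known as a factor of arterial endothelium. It stood at 2.09, 1.32 and 1.03 FPKM in WT, at 1.24, 1.22 and 1.04 in CAMK, and from 1.35 over 1.61 to 1.74 in CX3CL1-ct. WT spanned both other groups. The log2 difference was 0.24 (SE 0.12) for CX3CL1-ct against CAMK (limma adjusted p = 0.775), 0.06 for CX3CL1-ct against WT (adjusted p = 0.872) and -0.18 for CAMK against WT (adjusted p = 0.681). Without WT 3 the middle one was -0.07. Sox18, another factor of the family, stood at 2.69 ± 0.509, 2.69 ± 0.209 and 2.91 ± 0.467 in WT, CAMK and CX3CL1-ct, and the ETS factor gene Erg at 1.84 ± 0.206, 1.82 ± 0.289 and 1.97 ± 0.405.

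Pericyte genes split in their values. Vtn (chr11:78499091-78502324), which encodes vitronectin, an adhesive matrix protein that brain pericytes make at high levels, stood at 18.5, 12.4 and 14.6 FPKM in WT. It stood at 29.0, 18.5 and 22.7 in CAMK, and from 18.7 over 32.1 to 42.8 in CX3CL1-ct. No WT library reached any other, but WT 1 (18.49), CAMK 2 (18.54) and the lowest CX3CL1-ct library (18.71) were nearly level. The ratio of means was 1.97 for CX3CL1-ct against WT, with a log2 difference of 0.89 (SE 0.25, limma adjusted p = 0.159, 0.00658 to 0.512 over the alternatives). For CX3CL1-ct against CAMK it was 0.30 (SE 0.25, adjusted p = 0.887), or 0.46 without CAMK 1, 0.15 without CAMK 2 and 0.19 without CX3CL1-ct 4. For CAMK against WT it was 0.59 (SE 0.29, adjusted p = 0.439). With the replicate number as a block over all 12 libraries, that difference had an adjusted p of 0.0483. It was the only call of a member that the block added there, 1 of 31, beside 490 of all 16503 genes tested. Same-numbered CAMK and WT libraries deviated together, but CX3CL1-ct libraries did not do so at every number with either group. They shared the blocks and entered the spread of that fit, so the call does not rest on CAMK and WT alone.

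Anpep (chr7:79821803-79861059) encodes aminopeptidase N, found on brain pericytes and also on fibroblasts and myeloid cells. It stood at 0.538, 0.529 and 0.397 FPKM in WT, at 0.962, 0.685 and 0.646 in CAMK, and from 0.742 over 1.03 to 1.35 in CX3CL1-ct. WT was below all other libraries. The values rest on few fragments, an estimated 20 to 78 per library. Anpep passed the filter only through CX3CL1-ct libraries, so its tests against WT and CAMK cannot speak for its direction. The ratio of means was 2.12 for CX3CL1-ct against WT, with a log2 difference of 0.44 (SE 0.12, limma adjusted p = 0.156), and the difference from CAMK was 0.20 (SE 0.12, adjusted p = 0.823). With a pseudocount of 0.1 in place of 1 these were 0.93 and 0.38.

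The remaining pericyte genes overlapped between groups, other than Des in CAMK against WT. Rgs5, a regulator of G protein signalling that is a main mark of pericytes, stood in WT, CAMK and CX3CL1-ct at 41.4 ± 2.22, 40.5 ± 2.24 and 41.7 ± 4.02 FPKM. Pdgfrb, the receptor by which pericytes are recruited to vessels, stood at 5.14 ± 0.577, 5.17 ± 0.543 and 5.72 ± 0.653. Abcc9, a subunit of the potassium channel of pericytes, stood at 3.50 ± 0.461, 3.37 ± 0.538 and 3.07 ± 0.372, and Higd1b at 3.96 ± 0.370, 3.51 ± 0.872 and 3.60 ± 0.917. For these 4 genes the adjusted p was 0.614 or higher in every comparison. Des (desmin, an intermediate filament) was untested, at 0.782 ± 0.0653, 0.512 ± 0.216 and 0.579 ± 0.151. As a set, the median ratio of the 7 pericyte genes to their 12-library means was 0.913 to 1.07 in WT, 0.843 to 1.06 in CAMK and 0.895 to 1.13 in CX3CL1-ct.

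The contractile genes had the widest values of all members. Acta2 (smooth muscle α-actin, chr19:34241090-34255590) is a thin filament protein of smooth muscle. Its promoter window is shown for the serum response factor motif known in smooth muscle genes, the CArG box. It is at chr19:34255324-34255623 (- strand) on GRCm38.p6 and reads as follows, with CArG matches in capitals. Its RefSeq start lies 217 bases inside the interval given above.
Acta2: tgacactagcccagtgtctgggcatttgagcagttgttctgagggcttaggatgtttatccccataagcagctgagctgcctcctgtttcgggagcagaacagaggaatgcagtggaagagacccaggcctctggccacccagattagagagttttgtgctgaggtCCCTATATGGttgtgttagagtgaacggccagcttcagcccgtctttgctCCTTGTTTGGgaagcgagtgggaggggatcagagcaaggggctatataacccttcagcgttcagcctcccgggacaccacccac
A match here is CC, 6 bases of A or T of which at most 1 may be C or G, then GG, on either strand. The window holds 2, CCCTATATGG from base -84 and CCTTGTTTGG from base -34 relative to that RefSeq start. Of all windows 9.98% hold at least 1 and 0.822% at least 2. Among the 28 windows of members 7 hold at least 1, and the Acta2 window alone holds 2. Tagln and Myh11 are among the 11 members without a window, so their promoters were not read.

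Acta2 stood at 2.72, 1.48 and 2.62 FPKM in WT and at 2.93, 4.93 and 3.52 in CAMK. In CX3CL1-ct 1 to 6 it stood at 5.88, 6.55, 6.06, 12.4, 3.07 and 3.27. WT was below all other libraries, and CX3CL1-ct itself held values near 3, near 6 and above 12. The ratio of means was 2.73 for CX3CL1-ct against WT, with a log2 difference of 1.04 (SE 0.32, limma adjusted p = 0.205, 0.0368 to 0.581 over the alternatives). The low end is that with the replicate number as a block, where CX3CL1-ct enters only through libraries 1, 2 and 3. The log2 difference was 0.49 (SE 0.32, adjusted p = 0.833) for CX3CL1-ct against CAMK, or 0.29 without CX3CL1-ct 4. For CAMK against WT it was 0.55 (SE 0.37, adjusted p = 0.600), or 0.36 without WT 2.

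Tagln and Myh11 had the same libraries at the top and at the bottom of CX3CL1-ct. Tagln (transgelin, an actin-binding protein, chr9:45929619-45936058) stood at 1.34, 2.04 and 1.43 FPKM in WT and at 1.79, 1.64 and 2.16 in CAMK. In CX3CL1-ct 1 to 6 it stood at 2.82, 3.05, 2.88, 4.87, 0.958 and 0.990, so that 4 libraries were above and 2 below every WT and CAMK library. Its log2 difference was 0.37 (SE 0.30) for CX3CL1-ct against WT (limma adjusted p = 0.648) and 0.22 (SE 0.30) against CAMK (adjusted p = 0.949). Its exons overlap those of Pcsk7. Myh11 (smooth muscle myosin heavy chain, chr16:14194535-14291372) stood at 0.602, 0.357 and 0.432 in WT, at 0.587, 0.731 and 0.695 in CAMK, and at 1.11, 0.945, 0.979, 2.02, 0.536 and 0.537 in CX3CL1-ct. It reached 1 FPKM in 2 libraries and was not tested. Without the filter on low values its log2 difference from WT was 0.43, with an adjusted p of 0.441.

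Markers of the meninges moved with these genes. The 12 meningeal fibroblast markers, among them the collagen genes Col1a1, Col1a2 and Col3a1, summed to 41.6 to 60.6 FPKM in WT, 69.0 to 76.1 in CAMK and 71.2 to 148.9 in CX3CL1-ct, and none was at 0 in any library. Their median ratio to the 12-library mean was 0.443 to 0.678 in WT and 0.786 to 0.917 in CAMK, and in CX3CL1-ct it was 1.36, 1.49, 1.36, 1.82, 0.84 and 0.81 from library 1 to 6. For the 3 contractile genes the median ratio was 0.449 to 0.620 in WT and 0.738 to 0.920 in CAMK, and 1.30, 1.41, 1.31, 2.55, 0.66 and 0.68 in CX3CL1-ct. CX3CL1-ct 4 was thus the highest and CX3CL1-ct 5 and 6 the lowest of their group by both. The 23 endothelial genes had the same libraries highest and lowest over a narrower range. Their median ratio was 0.818 to 1.07 in WT and 0.916 to 1.02 in CAMK, and 1.07, 1.07, 1.04, 1.17, 0.88 and 0.92 in CX3CL1-ct. CX3CL1-ct 4 was also the highest of its group for the microglia and macrophage markers (1.34) and the astrocyte markers (1.21). All 12 meningeal markers had a positive difference between CX3CL1-ct and WT (62.7% of all genes), with a median of 1.02, and 4 rose past the threshold (0.454% of all genes were called in either direction). These were Col1a2 (1.06, limma adjusted p = 0.0420), Aldh1a2 (1.41, adjusted p = 0.0164), Slc6a13 (1.69, adjusted p = 0.0156) and Slc22a6 (1.38, adjusted p = 0.0408). The calls were not stable: without WT 2 or without WT 3, 0 genes in all were called higher in CX3CL1-ct than in WT. Between CX3CL1-ct and CAMK no meningeal marker was called (smallest limma adjusted p = 0.725). The part of the meningeal markers in the values of Vtn, Anpep, the contractile genes or other members was not tested.

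**Figure D4:**
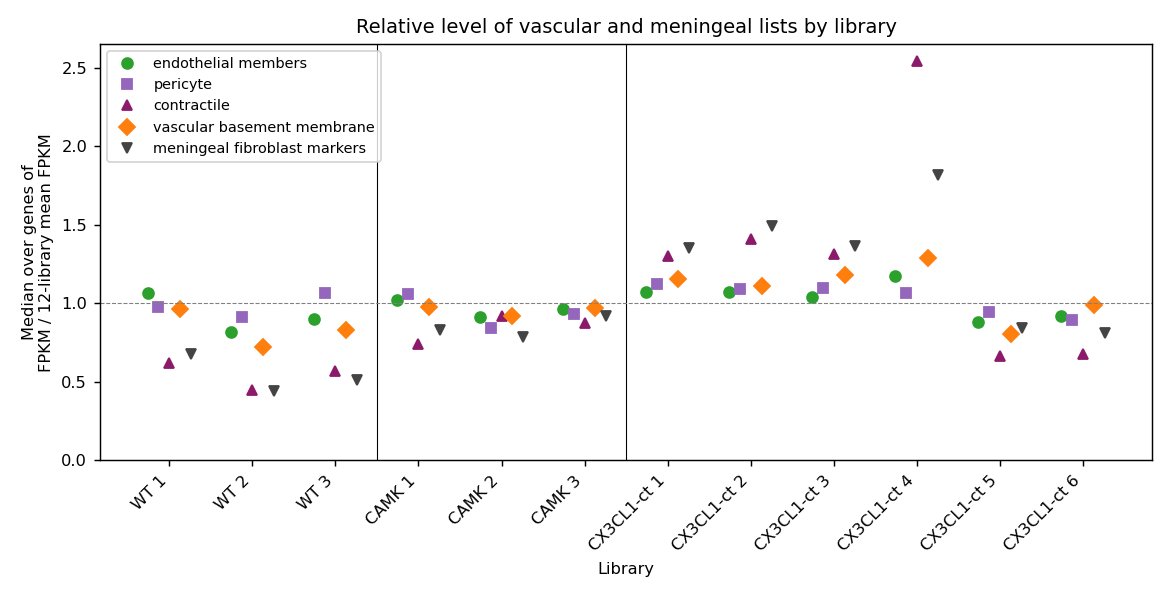
Median over each list's genes of the ratio of a library's FPKM to the 12-library mean (y axis), by library (x axis), for endothelial members, pericyte members, contractile members, vascular basement membrane genes and meningeal fibroblast markers. Contractile genes reach 2.55 and meningeal markers 1.82 in CX3CL1-ct 4, while endothelial members stay between 0.818 and 1.17.

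Macrophages, which lie along vessels, were read in the same way. The 11 microglia and macrophage markers summed to 61.8 to 75.3 FPKM in WT, 68.0 to 74.2 in CAMK and 61.9 to 90.1 in CX3CL1-ct. Lyve1 and Mrc1, markers of the macrophages of vessels and meninges, had log2 differences of 0.72 (limma adjusted p = 0.0757) and 0.77 (adjusted p = 0.0595) between CX3CL1-ct and WT. The 6 ependymal markers, none called, summed to 23.7 to 28.3 FPKM in WT, 16.7 to 23.1 in CAMK and 15.6 to 28.3 in CX3CL1-ct. Of these 6, 5 had a negative difference between CX3CL1-ct and WT, with a median of -0.41 (62.7% of all genes were positive). The part of these cells in the members' values was not tested.

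The genes that act on the vessel wall were read from 5 further lists. Of the 23 genes of vascular growth factors and signalling (VEGF, angiopoietin, PDGF, Notch and ephrin genes), 22 were tested and 0 were called in any comparison. For CX3CL1-ct against WT 13 of them had a positive difference (62.7% of all genes), with a median of 0.09, beside 0.04 for all genes. At an unadjusted p under 0.05 there were 3 positive (8.8% of all genes) and 3 negative ones (3.49% of all genes). In the comparison of CAMK with WT, 5 had a negative difference at an unadjusted p under 0.05 (5.79% of all genes) and 1 a positive one (6.6% of all genes). Vegfa, Nrp1, Nrp2, S1pr1, Apln and Cxcr4, named here after their values were seen, were lower without overlap (8.8% of all genes) and Angpt1, Notch3 and Notch4 higher (9.22% of all genes). S1pr1, a sphingosine phosphate receptor of endothelium and astrocytes, had the smallest p, at 24.5 ± 1.06, 19.6 ± 1.30 and 22.1 ± 1.24 FPKM in WT, CAMK and CX3CL1-ct (log2 difference of CAMK from WT -0.30, limma adjusted p = 0.0964). Angpt1, the ligand that activates Tek, stood at 4.68 ± 0.838, 5.77 ± 0.306 and 6.02 ± 0.729 FPKM in WT, CAMK and CX3CL1-ct (log2 difference from WT 0.31, adjusted p = 0.267). Efnb2, the ephrin of arterial endothelium, stood at 10.99 ± 1.26, 13.2 ± 1.62 and 16.01 ± 3.62 (0.48, adjusted p = 0.284).

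Of the 12 genes of barrier signalling, which hold the Wnt ligands of the brain and factors of barrier endothelium, 1 rose between CX3CL1-ct and WT and 0 were called in the other comparisons. Of all genes, 0.454% were called in either direction between CX3CL1-ct and WT. Foxc1, a forkhead factor of mural cells and of the meninges and not itself a Wnt component, stood at 1.79 ± 0.292, 2.67 ± 0.361 and 3.67 ± 0.717 FPKM in WT, CAMK and CX3CL1-ct. Its log2 difference from WT was 0.73 (SE 0.13, limma adjusted p = 0.0420). Of 26 further endothelial genes 22 had a positive difference between CX3CL1-ct and WT (62.7% of all genes), with a median of 0.13, and 1 rose (0.454% of all genes were called). That was Itm2a, a membrane protein gene, at 16.05 ± 0.968, 21.1 ± 2.22 and 24.4 ± 2.99, with a log2 difference of 0.57 (SE 0.10, adjusted p = 0.0325). Neither call was stable: both were lost without any 1 of WT 1, 2 and 3 and CX3CL1-ct 1, 2 and 3, where the adjusted p reached 0.246 for Foxc1 (without WT 2) and 0.199 for Itm2a (without WT 3). Both were also lost from these 2 groups alone (0.0940 and 0.0631) and with CX3CL1-ct 1 to 3 averaged (0.222 and 0.191), an alternative chosen after seeing the data. Foxc1 was lost under median-of-ratios scaling (0.0583), quantile normalization (0.0548) and no filter (0.0553), and Itm2a at a mean of at least 5 FPKM (0.0545). Both held without CX3CL1-ct 4, 5 or 6.

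Mural genes beyond the members and the matrix under them were not called. Of 14 further mural genes 12 were tested, and 7 had a positive difference between CX3CL1-ct and WT (62.7% of all genes), with a median of 0.09. Tbx18, a factor of pericytes, smooth muscle and meningeal cells, had the value 0.72 (limma adjusted p = 0.0909), and Cox4i2, a mitochondrial subunit of brain pericytes, -0.59 (adjusted p = 0.266). Of 9 vascular basement membrane genes 8 were positive (62.7% of all genes), with a median of 0.37. Nid1 (nidogen) stood at 8.95 ± 0.603, 10.5 ± 0.727 and 12.95 ± 1.78 FPKM in WT, CAMK and CX3CL1-ct (0.48, adjusted p = 0.0909), and the laminin gene Lama4 at 5.46 ± 0.654, 6.36 ± 0.326 and 7.79 ± 1.29 (0.43, adjusted p = 0.165). Fibroblasts make these proteins too. Between CX3CL1-ct and CAMK the medians were 0.09 for signalling, 0.13 for barrier signalling, 0.07 for further endothelial genes, 0.12 for further mural genes and 0.23 for basement membrane.

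As groups, the 23 endothelial members had a median log2 difference of 0.16 for CX3CL1-ct against WT (20 positive), 0.09 for CX3CL1-ct against CAMK (21 positive) and 0.09 for CAMK against WT (16 positive). The 8 tested mural members had medians of 0.25 (6 positive), 0.16 (7 positive) and 0.08 (5 positive), with Anpep among them for the reason given above. All genes had medians of 0.04, 0.04 and 0.00, with 62.7%, 63.2% and 50.5% positive. Over the alternatives the endothelial medians ran from 0.08 (without WT 2) to 0.23, from 0.04 (quantile normalization) to 0.13 and from -0.0014 (without WT 2) to 0.15. The mural medians ran from 0.09 to 0.33, from 0.09 to 0.20 and from 0.01 to 0.13, with both values of 0.09 those without CX3CL1-ct 4. The comparisons share libraries, so these counts do not support each other.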

How the data were processed

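Total RNA was sequenced from hippocampus after ribosomal RNA depletion with a stranded kit, paired ends, per the labels' protocols. The authors deposited 1 table of FPKM for 29454 genes in 12 libraries, made with TopHat, Bowtie, Cufflinks and Cuffdiff on mm10, per the submitters' processing notes. Versions, the scaling of FPKM and the use of strand are not given in the sources used here. Depth was estimated assuming fragments of 180 nt, and low genes are the least precise.

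limma 3.58.1 (eBayes with trend, R 4.3.3) was fitted to log2(FPKM + 1), with a pseudocount of 1, and tested on simulated data. Python 3.11.15 (pandas 2.3.3, numpy 2.4.6) served for tables. Coordinates come from GENCODE M21, which held 29258 of the gene IDs. Groups come from the labels. Members and lists were chosen with earlier results of these data known. A rule named members by smallest p (Cdh5, Tek, Vwf, Slc2a1, Sox17, Anpep), and by it genes of the other lists. Other members are described by role, and Vtn and Acta2 were singled out after their values were seen. Same-numbered CAMK and WT libraries deviated together (r over genes 0.236, 0.163 and 0.100), which meets the rule for pairs (over 0.1). CX3CL1-ct with CAMK (0.110, -0.130, -0.0912) or WT (0.114, -0.0622, 0.0106) did not. Alternatives were other pseudocounts, filters, scalings, a robust prior, 2 groups alone, the block and left-out libraries. One further list of markers is not reported here.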

Additional observations from a re-analysis of the deposited data

Results flagged for a closer look

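In CX3CL1-ct, the one group of 6 libraries, 6 of the 33 members had a highest or lowest library far from the other 5 by Dixon's test at the 95% level. Chance flags about 1 in 20 groups, and the members share libraries, so these are not independent. CX3CL1-ct 4 was the high one for Ocln (6.82 FPKM), Erg (2.73) and Acta2 (12.4). CX3CL1-ct 5 was the low one for Flt4 (0.814) and Egfl7 (13.4) and the high one for Ly6a (2.04). Leaving out CX3CL1-ct 4 or 5 led to no call of a member. The groups of 3 are too small for that test.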

How the results depend on the processing

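The median differences of the endothelial and mural members moved by less than the spread between replicates in 55 settings each. That limit is wide: it let the endothelial median of CAMK against WT go from 0.09 to -0.0014 without WT 2. It therefore cannot show that the medians held. All other medians kept their direction. Counts of genes called did not hold. For CX3CL1-ct against CAMK (10 genes) there were 6 at a mean of at least 5 FPKM, 171 with the replicate block and 7 to 11 leaving out 1 library. For CX3CL1-ct against WT (75) there were 144 without the filter, 15 at a mean of at least 5 FPKM, 38 from these 2 groups alone, 540 with the block and 13 to 158 leaving out 1 library (35, 14 and 13 without WT 1, 2 and 3, 40, 37 and 37 without CX3CL1-ct 1, 2 and 3, and 154 and 158 without CX3CL1-ct 4 and 5). For CAMK against WT (59) there were 123 without the filter, 8 at a mean of at least 5 FPKM, 490 with the block and 12 to 43 leaving out 1 library (14 and 12 without WT 2 and 3, and 32, 26 and 22 without CAMK 1, 2 and 3). In alternatives chosen after seeing the data, CX3CL1-ct against WT gave 28 with CX3CL1-ct 1 to 3 averaged and 338 without CX3CL1-ct 4 and 5; no member was called in either. With the replicate block, CX3CL1-ct against WT called 2 endothelial (Cdh5, adjusted p = 0.0369, and Tek, 0.0354) and 2 mural members (Vtn, 0.00658, and Acta2, 0.0368), and CAMK against WT called 1 mural member (Vtn, 0.0483). In that fit, made over all 12 libraries, the numbers 4, 5 and 6 occur only in CX3CL1-ct. The blocked differences of CX3CL1-ct therefore rest on CX3CL1-ct 1, 2 and 3 alone, the libraries that were more alike than others. These libraries also entered the spread behind the calls of CAMK against WT. Leaving out 1 library gave 0 to 1 endothelial calls (Tek). Every CAMK and WT library correlated best with its own number (6 of 6), against 2 of 6 for CX3CL1-ct with CAMK and 3 of 6 with WT, where the numbers are no more than a shared number. Signs turned for Vwf between CX3CL1-ct and CAMK (-0.0085 with quantile normalization, -0.0030 to 0.0812 leaving out 1 library, the low end without CX3CL1-ct 4), for Slc2a1 between CX3CL1-ct and WT (-0.0253 with median-of-ratios scaling, -0.0273 with quantile normalization, -0.0139 without CX3CL1-ct 4 and 5) and for Sox17 between CX3CL1-ct and WT (-0.0698 to 0.2337 leaving out 1 library, the low end without WT 3). The cause was not tested. Other differences near 0 moved by over 1.5 times leaving out 1 library: for CX3CL1-ct against CAMK, Tek ran from 0.0528 (without CX3CL1-ct 4) to 0.1417 (without CX3CL1-ct 6), and for CAMK against WT, Sox17 ran from -0.3094 (without WT 3) to -0.0059 (without WT 1). Depth limits Anpep, Des, Myh11 and Flt4, near or under 1 FPKM.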
